A study of Danio rerio with 25 samples.

Results

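The genes tcf21, wt1a, wt1b, tbx18, aldh1a2, prrx1a, prrx1b, pdgfra, pdgfrb and foxc1a mark the epicardium and the mesenchymal cells, fibroblasts among them, that descend from it. They were taken by name and matched to 10 gene IDs of the 31901 gene rows in the count files. The epicardium is the cell sheet that covers the heart. Some of its cells leave the sheet and become fibroblasts and the mural cells that wrap vessels, and in zebrafish it is activated by injury and releases signals to the muscle. The genes are not standard cardiomyocyte markers, and their counts were read tube by tube in libraries that were sorted as cardiomyocytes.

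RNA was read from 25 Smart-seq2 libraries, each made from 1 tube of 20 cells sorted from adult zebrafish hearts. All fish carried sox10:CreERT2, a drug-inducible recombinase under sox10 sequences, together with the reporter vmhcl:loxP-tagBFP-loxP-mCherry-NTR, in which recombination removes the blue protein and turns on the red one (fused to NTR) under vmhcl, a ventricular myosin gene. The groups were CI_RFP (cryoinjured hearts, red gate, 12 libraries), CI_BFP (cryoinjured hearts, blue gate, 3 libraries), UN_RFP (uninjured hearts, red gate, 6 libraries) and UN_BFP (uninjured hearts, blue gate, 4 libraries). No label gives the time after injury, the age beyond adult, or the animal, sort or day of a tube, so the p-values measure the spread between these tubes, which may be technical. The red gate reports recombination in a cell or its ancestors and not sox10 RNA at the time of the sort. A tube of 20 cells is a bulk sample, in which fewer cells of a type and less RNA per cell cannot be told apart.

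Total counts ran between 5644279 and 11981012 per library, and genes with at least 1 count between 1226 and 15380. Levels are CPM, counts scaled to the effective library size of each tube, and a tube was said to carry a gene at 1 CPM or more, which is 4.94 to 14.7 reads. The cardiomyocyte list (18 IDs) was carried in part by every tube, with 11 to 17 IDs in red-gate tubes and 9 to 14 in blue-gate tubes. Its summed level was 1910 to 246000 CPM in red-gate tubes and 1390 to 16200 CPM in blue-gate tubes. With both injury states averaged, 8 of its 17 tested IDs were higher in the red gate and 0 lower (edgeR quasi-likelihood test, Benjamini-Hochberg adjusted, beside 0.37% of all genes called higher), among them nppa, a natriuretic peptide gene (log2 5.36, adjusted p = 0.0011), mybpc3, a thick-filament protein gene (log2 4.38, adjusted p = 0.0114), an ID of TNNT2, the cardiac troponin T gene (log2 3.45, adjusted p = 0.0178), and RYR2, a calcium release channel gene (log2 7.08, adjusted p = 0.0206).

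How many of the listed genes a tube carried varied from 0 to 9. At least 3 of the 10 IDs were carried by 7 of 12 CI_RFP tubes, 3 of 3 CI_BFP tubes, 2 of 6 UN_RFP tubes and 4 of 4 UN_BFP tubes. No ID was carried by 6 of the 25 tubes, and all 6 were from the red gate. In contrast, 10 tubes carried 8 or 9 IDs: 6 CI_RFP, 1 CI_BFP, 1 UN_RFP and 2 UN_BFP. The tubes in between were 1 CI_RFP tube with 4 IDs, CI_BFP tubes 2 and 3 with 5 and 6, 1 UN_RFP tube with 3, and UN_BFP tubes 2 and 3 with 6 each, and 3 further red-gate tubes had 1 or 2. Over the 9 listed IDs that were tested, the median ID was carried by 6 of 12 CI_RFP, 2 of 3 CI_BFP, 1 of 6 UN_RFP and 4 of 4 UN_BFP tubes, beside 7, 2, 2 and 2 tubes for the median of all genes tested.

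**Figure D1:**
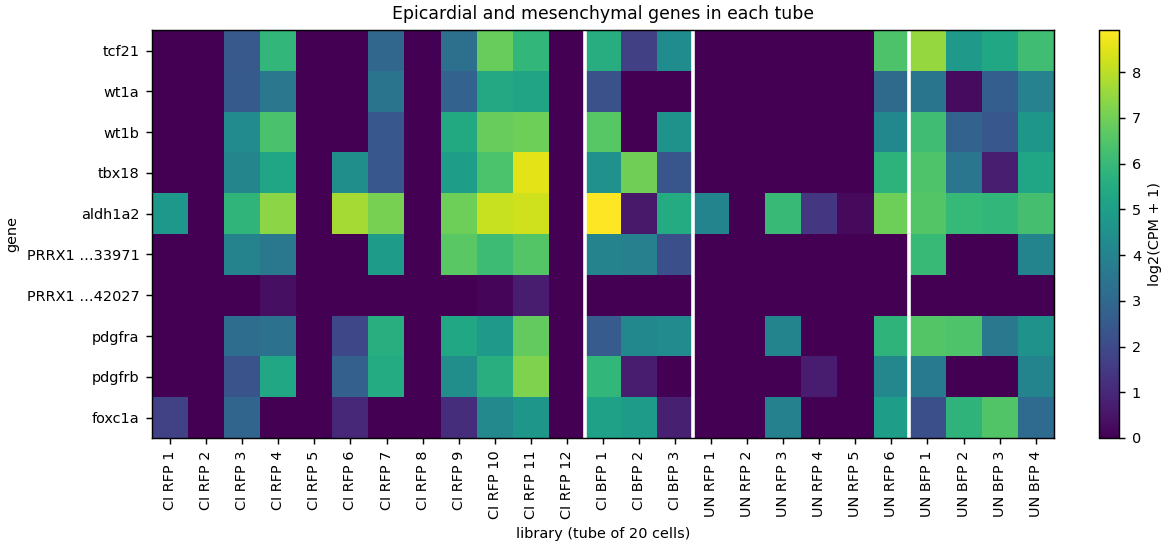
Level of each listed gene (rows) in each of the 25 tubes (columns, by group, with white lines between groups) as log2(CPM + 1). CI_RFP tubes 3, 4, 7, 9, 10 and 11 and UN_RFP tube 6 are filled across most rows, while CI_RFP tubes 2, 5, 8 and 12 and UN_RFP tube 2 are at 0 in every row.

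Of the transcription factors, tcf21, which marks epicardial cells and fibroblast precursors, split the red gate. In CI_RFP it was at 0 CPM in 6 tubes and at 4.56, 6.65, 8.85, 58.25, 58.81 and 113.6 CPM in the others. In CI_BFP it stood at 2.22, 19.36 and 46.42 CPM. In UN_RFP it was at 0 CPM in 5 tubes and at 85.79 CPM in the sixth, tube 6. In UN_BFP it stood at 26.88, 39.98, 71.26 and 181.5 CPM, so that every blue-gate tube carried it, against 7 of 18 red-gate tubes. UN_RFP tube 6 lay above 3 of the 4 UN_BFP tubes, so the uninjured groups overlapped through that 1 tube.

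Fisher's exact test of tubes carrying tcf21 gave p = 0.00783 (two-sided, 7 of 18 in the red gate, 7 of 7 in the blue gate), and adjusted over all 14853 tested genes the p was 0.896. For pdgfra, carried by 9 of 18 red-gate and 7 of 7 blue-gate tubes, the same test gave p = 0.0267 (adjusted p = 0.896). Of all genes 0.0% passed the adjusted test and 3.62% had an unadjusted p under 0.05, as had 2 of the 9 tested listed genes. The 5 libraries under 6000 genes detected were all of the red gate. Without them tcf21 was carried by 7 of 13 red-gate and 7 of 7 blue-gate tubes (Fisher's exact test, unadjusted p = 0.0515). For pdgfra the counts were 9 of 13 and 7 of 7 (Fisher's exact test, unadjusted p = 0.249). The part of gene detection in these differences was not tested. Within the uninjured libraries, tcf21 and wt1b were each carried by 1 of 6 red-gate and 4 of 4 blue-gate tubes (Fisher's exact test, two-sided, unadjusted p = 0.0476 for each), a level under 0.05 that 2.38% of all genes reached there. After adjustment 0 genes passed. Both genes were carried by the same tubes, UN_RFP tube 6 and all UN_BFP tubes, so the 2 results are not separate observations. Within the injured libraries tcf21 was carried by 6 of 12 red-gate and 3 of 3 blue-gate tubes (Fisher's exact test, unadjusted p = 0.229).

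The Wilms tumour factors wt1a and wt1b, zinc finger genes of the epicardium, followed tcf21. For wt1a (listed as WT1 in the name table), CI_RFP ran between 0 and 40.64 CPM with a median of 2.41, with 6 of 12 tubes carrying it. CI_BFP had it in 1 tube at 3.62 CPM and at 0 in the other 2. UN_RFP had it in tube 6 at 7.49 CPM and at 0 in 5 tubes, and UN_BFP stood at 0.194, 5.40, 9.97 and 14.53 CPM. wt1a was thus the tested gene that the fewest CI_BFP tubes carried, together with pdgfrb.

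For wt1b, CI_RFP ran between 0 and 121.5 CPM with a median of 2.17. CI_BFP stood at 0, 22.43 and 95.23 CPM. UN_RFP tube 6 had 16.91 CPM and the other 5 tubes were at 0, while UN_BFP stood at 4.33, 5.92, 25.46 and 72.01 CPM. The 13 tubes with wt1b all carried tcf21, and the 11 tubes with wt1a all carried both wt1b and tcf21.

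The T-box factor tbx18, active in epicardium and in mural cells, was at 0 CPM in 5 CI_RFP tubes and reached 370.7 CPM in CI_RFP tube 11. Its CI_RFP median was 10.06 CPM. CI_BFP stood at 4.29, 21.54 and 125.1 CPM. UN_RFP tube 6 had 54.01 CPM against 0 in the other 5, and UN_BFP stood at 0.684, 10.19, 38.25 and 86.52 CPM. CI_RFP tube 6 carried tbx18 at 20.67 CPM with no tcf21, wt1a or wt1b.

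Forkhead factor foxc1a (listed as FOXC1), known from mesenchyme and vessel walls, was carried by 13 of 25 tubes. CI_RFP ran between 0 and 25.37 CPM with a median of 0.489, and 5 of 12 tubes carried it. CI_BFP stood at 0.735, 29.24 and 33.36 CPM. UN_RFP had 30.30 CPM in tube 6, 14.26 CPM in tube 3 and 0 in the other 4, and UN_BFP stood at 3.53, 7.67, 54.53 and 89.60 CPM. The red and blue gates overlapped in both injury states.

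The name table gives PRRX1, a homeobox gene of mesenchyme and fibroblasts, for ENSDARG00000033971 and ENSDARG00000042027 without saying which is prrx1a and which prrx1b. ENSDARG00000033971 was carried by 6 of 12 CI_RFP tubes, at 10.92, 14.73, 29.60, 67.70, 90.88 and 98.54 CPM, and was at 0 in the other 6. CI_BFP stood at 3.55, 13.77 and 14.87 CPM. It had no count in any UN_RFP tube, and in UN_BFP it stood at 0, 0, 15.23 and 65.77 CPM. It was the one tested gene absent from UN_RFP tube 6, which carried 8 others. ENSDARG00000042027 had counts in CI_RFP tubes 4, 10 and 11 alone, at most 0.637 CPM, and failed the filter on low counts, so that 9 of the 10 IDs were tested.

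The retinaldehyde dehydrogenase aldh1a2, which makes retinoic acid and is also switched on in endocardium after injury in zebrafish, was carried most widely, by 18 of 25 tubes. CI_RFP ran between 0 and 308.1 CPM with a median of 89.09, and 8 of 12 tubes carried it. CI_BFP stood at 0.530, 43.63 and 482.7 CPM. UN_RFP stood at 0, 0.158, 1.68, 15.10, 65.09 and 122.4 CPM, and UN_BFP at 58.60, 61.62, 77.42 and 91.88 CPM. It was found without tcf21 in 5 tubes, all of the red gate, which no other listed gene matched.

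Of the receptors for platelet-derived growth factors, pdgfra, of fibroblasts and epicardium-derived cells, was at 0 CPM in 5 CI_RFP tubes and reached 108.0 CPM in another. Its CI_RFP median was 5.50 CPM. CI_BFP stood at 4.86, 17.06 and 18.87 CPM. UN_RFP had 54.35 CPM in tube 6, 15.15 CPM in tube 3 and 0 in the other 4, and UN_BFP stood at 10.94, 22.09, 88.21 and 92.29 CPM. All 14 tubes with tcf21 and all 14 with tbx18 carried pdgfra.

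pdgfrb, the receptor of mural cells, ran between 0 and 143.7 CPM in CI_RFP with a median of 4.75, and 7 of 12 tubes carried it. CI_BFP stood at 0, 0.636 and 58.91 CPM. UN_RFP had 16.34 CPM in tube 6, 0.601 CPM in tube 4 and 0 in the other 4, and UN_BFP stood at 0, 0, 11.32 and 15.23 CPM. All 11 of its carrying tubes also carried tbx18, and 10 of them carried tcf21.

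**Figure D2:**
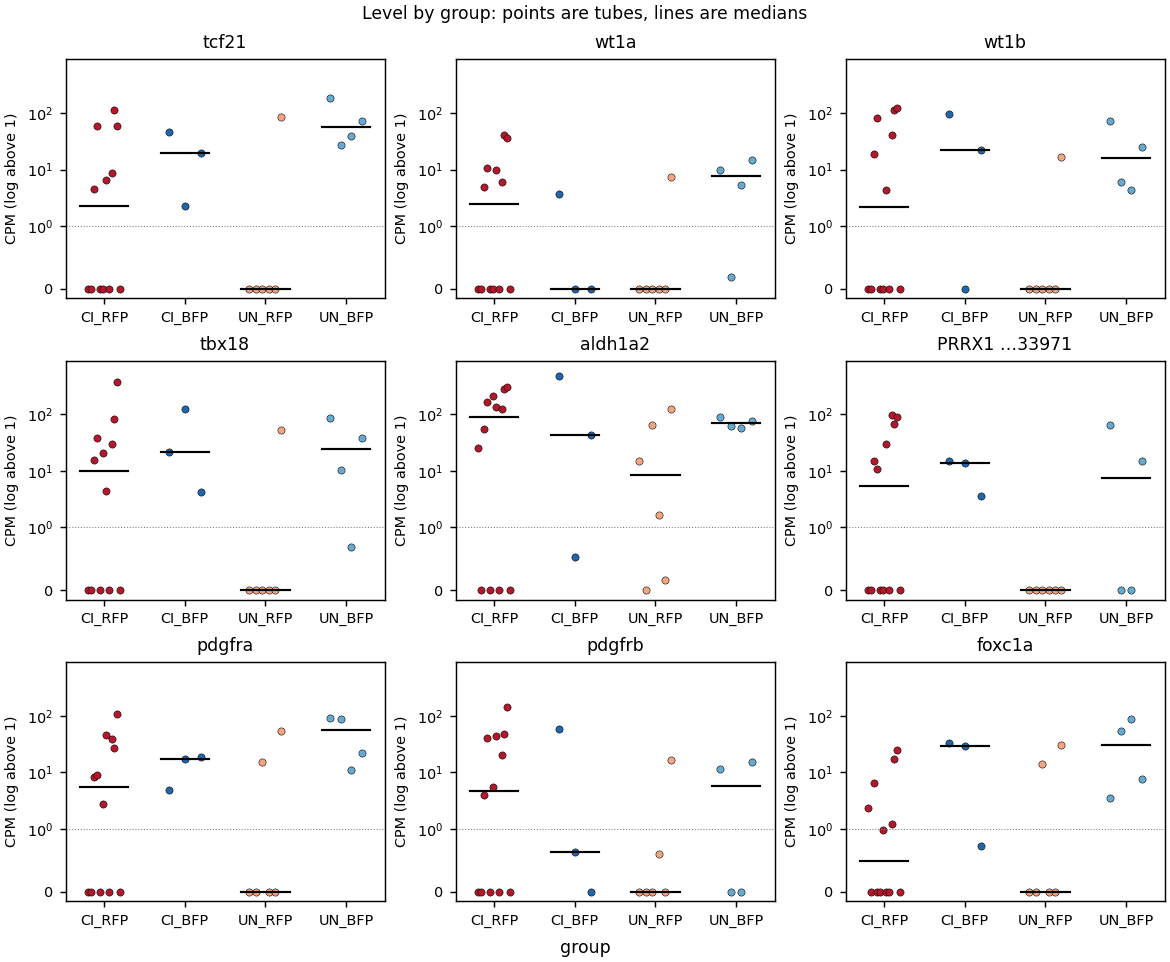
CPM of the 9 tested genes by group (1 panel per gene; points are tubes, black lines are group medians, the axis is logarithmic above 1 CPM and linear below, and the dotted line is 1 CPM). For 8 of the 9 genes the UN_RFP median is at 0, with tube 6 high in each panel but that of PRRX1.

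The injured gates were compared first. In CI_RFP against CI_BFP 0 of the 9 tested genes passed (edgeR, Benjamini-Hochberg; 0.0% of all genes passed), 0 had an unadjusted p under 0.05 (9.32% of all genes had), and 5 folds were negative. The log2 fold change of wt1a was 2.88 ± 2.82 (SE) with an adjusted p of 0.999, and that of foxc1a was -2.23 ± 1.79 with an adjusted p of 0.952. limma-voom and DESeq2 also called 0 of the 9, beside 1.71% and 3.0% of all genes.

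In uninjured hearts all 9 folds of UN_RFP against UN_BFP were negative, and 0 of 9 passed the edgeR test, as did 0.0% of all genes. Their median log2 fold change was -2.38, also with PRRX1 set at its bound, beside -0.43 over all genes tested, of which 58.2% were negative. The values were -3.25 ± 2.27 for wt1b, -2.58 ± 2.30 for wt1a, -2.48 ± 2.28 for tcf21, -2.38 ± 2.02 for foxc1a and -2.20 ± 1.85 for pdgfra. They were -1.91 ± 2.38 for tbx18, -1.23 ± 2.08 for pdgfrb and -1.09 ± 1.98 for aldh1a2 (SE; edgeR adjusted p between 0.594 and 0.962 for these 8). PRRX1 ENSDARG00000033971 averaged 0 CPM in UN_RFP and 20.25 ± 31.19 CPM in UN_BFP (SD, n = 6 and 4), at least 343.9-fold lower against a floor of 3 counts over the group (edgeR adjusted p = 0.115, unadjusted p = 0.00016). It was the 1 of 9 with an unadjusted p under 0.05, which 17.8% of all genes had. Genes detected ran from 1226 to 11057 in UN_RFP tubes and from 6920 to 12740 in UN_BFP tubes. The part of gene detection in these folds was not tested.

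Calls in this comparison changed when UN_RFP tube 6 was left out, though PRRX1 ENSDARG00000033971 had no count in that tube. Without it, edgeR called 4 of the 9 lower in UN_RFP than in UN_BFP: tcf21 (adjusted p = 0.0139), tbx18 (adjusted p = 0.0295), wt1b (adjusted p = 0.0356) and PRRX1 ENSDARG00000033971 (adjusted p = 0.0435), none of which had a count in the 5 remaining UN_RFP tubes, and 1.09% of all genes were called lower. Those 5 tubes had 1226 to 9152 genes detected, against 6920 to 12740 in UN_BFP, and the part of this in the calls was not tested. The adjusted p of tcf21 ran between 0.0061 and 0.927 over all alternatives. With all tubes, limma-voom called tcf21 (adjusted p = 0.0061) and DESeq2 called PRRX1 ENSDARG00000033971 (adjusted p = 2.3e-18), 1 of 9 each, beside 1.33% of all genes by limma-voom and 5.43% by DESeq2. The DESeq2 call is against a group at 0. PRRX1 ENSDARG00000033971 was carried by 0 of 6 UN_RFP and 2 of 4 UN_BFP tubes (Fisher's exact test, two-sided, unadjusted p = 0.133).

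Injury was then compared within the red gate. In CI_RFP against UN_RFP 8 of 9 folds were positive, with a median log2 fold change of 2.38 (also with PRRX1 at its bound) beside 0.75 over all genes, of which 30.5% were negative. edgeR called 0 of the 9 and 0.0269% of all genes. wt1b averaged 31.81 ± 47.07 CPM in CI_RFP and 2.82 ± 6.90 CPM in UN_RFP (SD, n = 12 and 6), a log2 fold change of 3.49 ± 2.08 (SE, edgeR adjusted p = 0.473). The log2 fold changes of pdgfrb, wt1a and tbx18 were 3.16 ± 1.93, 2.83 ± 2.06 and 2.38 ± 2.1 (SE, edgeR adjusted p between 0.487 and 0.770). PRRX1 ENSDARG00000033971 averaged 26.03 ± 37.70 CPM in CI_RFP and 0 CPM in UN_RFP, at least 442.0-fold higher (edgeR adjusted p = 0.0796, unadjusted p = 8.2e-05), and 17.0% of all genes had an unadjusted p under 0.05. limma-voom (adjusted p = 0.0368) and DESeq2 (adjusted p = 3.21e-30) called it, beside 3.53% and 5.8% of all genes, and its adjusted p ran up to 0.444 under other settings. These calls too are against a group at 0. By carrying tubes, 6 of 12 against 0 of 6, Fisher's exact test (two-sided) gave p = 0.0537 (adjusted p = 0.581). Without UN_RFP tube 6 edgeR called 4 of the 9 higher in CI_RFP (tcf21, tbx18, wt1b and PRRX1 ENSDARG00000033971) beside 0.991% of all genes. All 4 then had no count in UN_RFP. Leaving out any 1 of CI_RFP tubes 1, 2, 6 and 12 and CI_BFP tubes 1, 2 and 3 also brought an edgeR call of PRRX1 ENSDARG00000033971 alone among the 9 (adjusted p between 0.0216 and 0.0498). Genes detected per tube also differed, with 3874 to 15380 in CI_RFP and 1226 to 11057 in UN_RFP. So did the myosin held. CI_RFP tubes 3, 4, 5, 6, 7, 9, 10 and 11 had more myh6 (atrial myosin) than vmhc (ventricular myosin). In UN_RFP only tubes 3 and 6 had, and the remaining tubes of both groups had more vmhc. With the log2 ratio of vmhc to myh6 as a covariate in the edgeR fit, 0 of the 9 were called in this comparison. Over the 9 other settings, that fit among them, 0 to 4 of the 9 folds were negative. What genes detected and myosin each contributed to the result was not tested.

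Between the blue-gate groups, CI_BFP against UN_BFP, edgeR called 0 of the 9 and 0.0% of all genes, and 0 of the 9 had an unadjusted p under 0.05 (9.08% of all genes had). limma-voom and DESeq2 called 0 of the 9 too, beside 0.121% and 3.17% of all genes. pdgfra averaged 13.60 ± 7.62 CPM in CI_BFP and 53.38 ± 42.84 CPM in UN_BFP (SD, n = 3 and 4), a log2 fold change of -1.97 ± 2.34 (SE, edgeR adjusted p = 1.0). wt1a averaged 1.21 ± 2.09 CPM in CI_BFP and 7.52 ± 6.15 CPM in UN_BFP, a log2 fold change of -2.62 ± 2.98 (edgeR adjusted p = 1.0). All CI_BFP comparisons rest on 3 tubes.

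The interaction of gate and injury, which asks whether the red-minus-blue difference changed with injury, was called for 0 of the 9 and for 0.0% of all genes by edgeR. It was largest for PRRX1 ENSDARG00000033971 (edgeR adjusted p = 0.253, unadjusted p = 0.0026; 11.5% of all genes were under 0.05 unadjusted) and wt1a (log2 5.45 ± 3.73, adjusted p = 0.697). limma-voom called 0 of the 9 and 0.0202% of all genes, and DESeq2 called PRRX1 ENSDARG00000033971 alone and 4.72% of all genes.

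With injury states averaged, red against blue gave 8 negative folds of 9 with a median of -1.01, beside -0.12 over all genes, and edgeR called 0 of the 9 and 0.869% of all genes; 1 of the 9, PRRX1 ENSDARG00000033971, had an unadjusted p under 0.05, which 17.5% of all genes had. The log2 fold changes were -1.30 ± 1.54 for tcf21 (adjusted p = 0.835), -2.31 ± 1.36 for foxc1a (adjusted p = 0.399) and -4.61 ± 1.41 for PRRX1 ENSDARG00000033971 (adjusted p = 0.0739), whose fitted values rest in part on a group at 0. Here limma-voom called 2, tcf21 (adjusted p = 0.0101) and foxc1a (adjusted p = 0.0443), and DESeq2 called PRRX1 ENSDARG00000033971 (adjusted p = 5.67e-09), beside 2.89% and 6.83% of all genes. The call of foxc1a was not made by limma-voom without robust variance. Without UN_RFP tube 6 edgeR called 3 lower, tcf21, tbx18 and wt1b, beside 2.75% of all genes. These 3 genes then had no count in UN_RFP, so the calls rest in part on a group at 0. In injured hearts their ratios of means, CI_RFP to CI_BFP, were 0.92, 0.93 and 0.81 in that order. With gates averaged, injured against uninjured, edgeR called 0 of the 9 and 0.0% of all genes, limma-voom 0 and 0.815%, and DESeq2 1 (PRRX1 ENSDARG00000033971) and 5.9%. That gene was also the 1 of 9 with an unadjusted edgeR p under 0.05, which 13.4% of all genes had. Fisher's test of carrying tubes was lowest for PRRX1 ENSDARG00000033971, at 9 of 15 injured and 2 of 10 uninjured tubes (exact two-sided p = 0.0992, adjusted p = 0.585); 0.0% of all genes passed and 8.4% had an unadjusted p under 0.05.

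Which red-gate tubes carried the genes went with the myosin they held. Of the 10 red-gate tubes with more myh6, the atrial myosin gene, than vmhc, the ventricular one, 9 carried at least 3 listed IDs, and the exception was CI_RFP tube 5, with 3874 genes detected. Of the 8 red-gate tubes with more vmhc, 0 carried 3 or more, and they held 0 to 2 IDs with 1226 to 11491 genes detected. In the blue gate 6 tubes had more vmhc, and all 6 carried at least 5 IDs. The vmhc level of these 6 was 107.1 to 3278 CPM, against 1580 to 53550 CPM in the 8 red-gate tubes. Their cardiomyocyte list summed to 1387 to 16210 CPM, against 32250 to 246000 CPM, so the 2 sets are not alike in cardiomyocyte RNA. Across all tubes, those with 3 or more IDs had 6920 to 15380 genes detected and those with none 1226 to 10657, so the ranges overlapped, and CI_RFP tubes 1, 2 and 12, with 11491, 10657 and 10261 genes detected, carried 2, 0 and 0 IDs. These are counts of tubes with no test, and no share of all genes with the same split is given beside them. The part of gene detection in these counts was not tested.

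**Figure D3:**
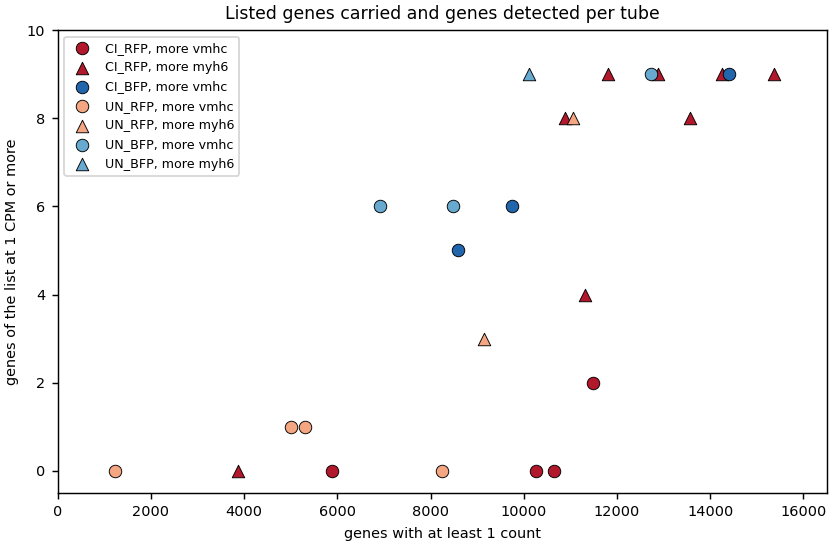
Number of the 10 listed IDs at 1 CPM or more (y axis) against the genes with at least 1 count (x axis) in each of the 25 tubes, coloured by group, with triangles for tubes with more myh6 and circles for tubes with more vmhc. Red-gate circles lie at 0 to 2 IDs, including CI_RFP tubes with 10261, 10657 and 11491 genes, while blue-gate circles lie at 5 to 9. Red-gate circles held 1580 to 53550 CPM of vmhc and blue-gate circles 107.1 to 3278 CPM.

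When the log2 ratio of vmhc to myh6 entered the edgeR fit as a covariate, 3 of the 9 were called lower in CI_RFP than in CI_BFP (tcf21, tbx18 and wt1b; 0.768% of all genes were called lower), 3 lower in UN_RFP than in UN_BFP (PRRX1 ENSDARG00000033971, tbx18 and tcf21; 0.956% of all genes), and 5 lower in the red gate with injury averaged (those 4 genes and pdgfra; 7.39% of all genes). tcf21 had a log2 fold change of -7.50 there (adjusted p = 0.00238). In the blue gate only 1 tube had more myh6, so the adjustment leans on the red-gate tubes. The log2 ratios of CI_BFP were 5.66 to 8.22, while every CI_RFP tube was at -6.05 or below or at 12.79 or above. No CI_RFP tube thus lay within the range of CI_BFP, and the adjusted fold between them rests on a line fitted across that gap.

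Other lists of the same and neighbouring cell types were read in the same tubes. The epicardium list (18 IDs) summed to 2300 to 13100 CPM in the 9 red-gate tubes with at least 3 listed IDs, to 76.7 to 844 CPM in the 9 other red-gate tubes and to 1090 to 4260 CPM in blue-gate tubes. The fibroblast matrix list (28 IDs) summed to 3500 to 55300, 0 to 290 and 1780 to 14200 CPM in the same 3 sets, so that the red-gate sets did not overlap in either list. Within the epicardium list gata5 and podxl were each carried by 12 of 12 CI_RFP and 5 of 6 UN_RFP tubes. CI_RFP tubes with no listed ID were thus among them. By contrast, bnc1 reached 1 CPM in 1 UN_RFP tube alone, and upk3b had no count in any library. Which cells held the RNA of this list was not tested. The medians of other cell type lists differed between the red-gate sets too, but their ranges overlapped. Medians and ranges are given for red-gate tubes with at least 3 listed IDs against the other red-gate tubes. Cardiomyocyte genes summed to 12300 (1910 to 110000) against 121000 (32200 to 246000) CPM, and leukocyte genes to 476 (17.0 to 5980) against 10.3 (0 to 5410) CPM. Endothelial genes summed to 360 (96.1 to 1290) against 85.1 (0.146 to 1170) CPM, and mural genes to 881 (270 to 6410) against 175 (112 to 2130) CPM. The part of these cell types in the result was not tested. These sets were formed from the listed genes, so the ranges are a description with no test.

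By group, edgeR called 0 of 15 tested epicardium IDs and 0 of 26 matrix IDs in each of the 7 comparisons. limma-voom called 1 epicardium ID and 1 matrix ID lower in UN_RFP than in UN_BFP, beside 189 of all 14853 genes. It called 1 and 2 higher in CI_RFP than in UN_RFP, beside 525 of all genes. With injury averaged it called 1 and 3 lower in the red gate, beside 306 of all genes. FN1, fibronectin, has 2 IDs that the table does not tell apart as fn1a and fn1b. ENSDARG00000006526 had means of 2130 ± 2800 CPM (CI_RFP), 739 ± 253 CPM (CI_BFP), 151 ± 365 CPM (UN_RFP) and 1500 ± 862 CPM (UN_BFP; SD, n = 12, 3, 6 and 4), and ENSDARG00000019815 averaged 447 ± 525, 218 ± 99.7, 18.3 ± 26.7 and 68.7 ± 39.0 CPM in that order. col1a2, a collagen I chain, averaged 2750 ± 3810, 1670 ± 2090, 136 ± 205 and 699 ± 428 CPM in the same groups. In UN_RFP against UN_BFP 23 of 26 matrix folds were negative, with a median log2 fold change of -1.85, beside 58.2% of all genes. Positive were 21 of 26 in CI_RFP against CI_BFP (median 1.26), where 44.7% of all genes were negative. So were 25 of 26 in CI_RFP against UN_RFP (median 2.88), where 30.5% of all genes were negative. In CI_BFP against UN_BFP 11 of 26 were positive (median -0.24), where 46.9% of all genes were negative. Of the 15 epicardium folds, 9 were negative and 6 positive in UN_RFP against UN_BFP (60.0% negative, near the share of all genes). Positive epicardium folds were 9 in CI_RFP against CI_BFP, 13 in CI_RFP against UN_RFP and 8 in CI_BFP against UN_BFP.

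Among the ligands and retinoic acid genes (31 IDs) 0 of 26 tested passed by edgeR in any of the 7 comparisons. limma-voom called 1 higher and 1 lower in CI_RFP against CI_BFP, beside 150 and 104 of all 14853 genes. It called 1 higher in CI_RFP against UN_RFP, beside 525 of all genes. The ligand gene pdgfba had means of 10.8 CPM (CI_RFP), 60.2 CPM (CI_BFP), 24.1 CPM (UN_RFP) and 35.6 CPM (UN_BFP), and was carried by 7, 3, 3 and 3 tubes. cyp26b1, which breaks down retinoic acid, averaged 47.7, 29.3, 33.4 and 109 CPM, and was carried by 7, 1, 3 and 4 tubes. pdgfrl, a receptor-like gene with the highest mean CPM of the list over all 25 libraries, though not within the blue gate, averaged 136 ± 88.1, 25.9 ± 15.6, 115 ± 111 and 81.6 ± 69.6 CPM (SD). aldh1a3, a second retinaldehyde dehydrogenase, had no count in any library.

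The mural list (15 IDs) had 1 of 11 tested IDs called by edgeR (0.37% of all genes were called higher there). This was abcc9, a potassium channel subunit gene, higher in the red gate with injury averaged (log2 8.63, edgeR adjusted p = 0.0487). Its means were 19.1 ± 30.5 CPM (CI_RFP), 0 (CI_BFP), 14.0 ± 21.8 CPM (UN_RFP) and 0.102 ± 0.203 CPM (UN_BFP). Cardiomyocyte genes were higher in the red gate too, and which cells of a tube held abcc9 was not tested. Its fitted fold rests in part on a group at 0. acta2, smooth muscle actin, averaged 529 ± 827, 0, 499 ± 498 and 88.2 ± 119 CPM and did not pass (adjusted p = 0.0990). The 2 IDs of TAGLN, a smooth muscle actin-binding protein, went in different directions without passing: ENSDARG00000033466 averaged 136 ± 124, 258 ± 26.4, 97.0 ± 124 and 507 ± 95.8 CPM and ENSDARG00000045408 averaged 445 ± 956, 31.4 ± 28.7, 313 ± 353 and 29.8 ± 47.4 CPM. Red against blue with injury averaged, 3 of 11 mural folds were negative, beside 53.1% of all genes. There limma-voom called 1 mural ID higher and 1 lower, beside 123 and 306 of all 14853 genes.

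Leukocyte genes (14 IDs) summed to 0.810 to 5980 CPM in CI_RFP tubes, 2130 to 11500 CPM in CI_BFP tubes, 0 to 5410 CPM in UN_RFP tubes and 54.9 to 12700 CPM in UN_BFP tubes, and 0 of 12 passed by edgeR in any comparison. limma-voom called 7 of 12 lower in CI_RFP than in CI_BFP, beside 104 of all 14853 genes. It called 7 of 12 lower in the red gate with injury averaged, beside 306 of all genes. Their most abundant member cd74a, an antigen presentation gene, averaged 640 ± 1290, 4010 ± 3430, 456 ± 828 and 2420 ± 3950 CPM. Endothelial genes (11 IDs) summed to 0.146 to 999, 347 to 1310, 85.1 to 1290 and 735 to 1390 CPM in the 4 groups, and 0 of 11 passed by edgeR. limma-voom called 2 of 11 lower in UN_RFP than in UN_BFP, beside 189 of all genes, and 7 of 11 lower in the red gate with injury averaged. Tubes of both gates that carried at least 3 listed IDs held such RNA, with leukocyte sums of 17.0 to 5980 CPM in the red gate and 54.9 to 12700 CPM in the blue gate, and its part in the gate differences was not tested.

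Markers of erythrocytes, thrombocytes and neural crest were low in most tubes. The erythrocyte list lacks the beta globin genes hbba1 and hbba2, which matched no ID, and its highest sum was in CI_RFP tube 9. Erythrocyte genes (7 IDs) summed to at most 602 CPM (CI_RFP), 1.17 CPM (CI_BFP), 79.6 CPM (UN_RFP) and 7.14 CPM (UN_BFP). Thrombocyte genes (4 IDs) summed to at most 42.5, 0.191, 5.0 and 17.9 CPM. Neural crest and glia genes (7 IDs) summed to at most 50.9, 1.23, 56.7 and 113 CPM, and sox10 itself had means of 7.04 ± 13.5 CPM (CI_RFP), 0 (CI_BFP), 12.8 ± 21.9 CPM (UN_RFP) and 4.41 ± 8.06 CPM (UN_BFP). In these 3 lists 0 of 3, 0 of 1 and 0 of 1 tested IDs passed by edgeR in any comparison. Of them limma-voom called only sox10, higher in CI_RFP than in CI_BFP, beside 150 of all 14853 genes.

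**Figure D4:**
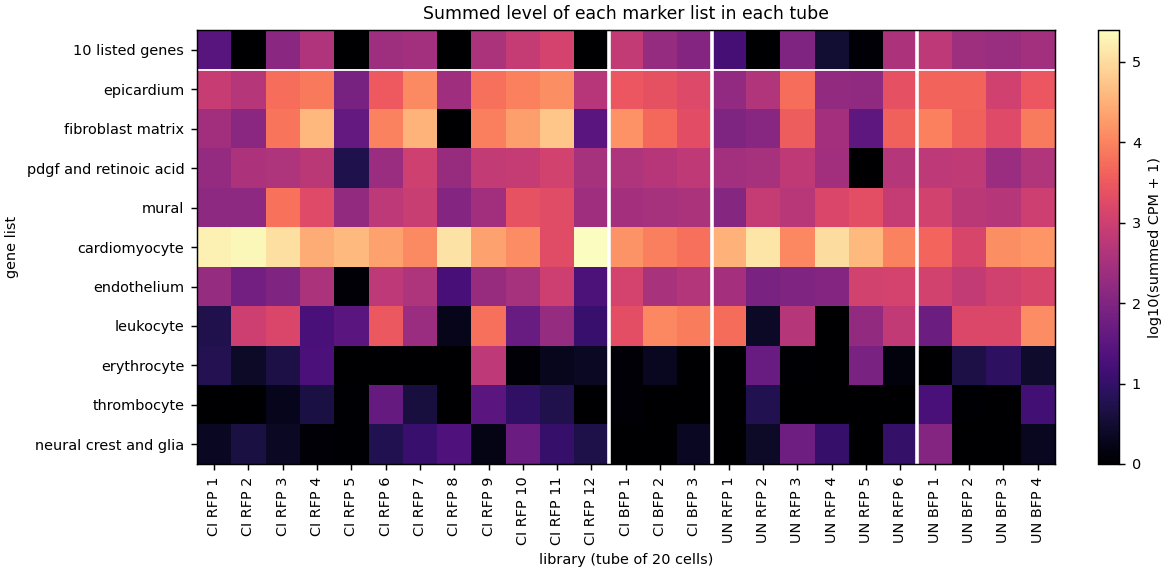
Summed CPM of the 10 listed genes (top row) and of 10 further marker lists in each of the 25 tubes, as log10(summed CPM + 1), with white lines between groups. In the red-gate tubes where the top row is dark, the epicardium and fibroblast matrix rows are lower than in the other red-gate tubes. The epicardium row is not at 0 there, with sums of 76.7 to 844 CPM. Of that list gata5 and podxl were each carried by 12 of 12 CI_RFP and 5 of 6 UN_RFP tubes. The cardiomyocyte row is at 1390 CPM or more in every tube.

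The genes whose levels ran most like each listed gene over the 25 libraries were found by Spearman's rho, as a description with no test, since depth and the presence of the carrying cells are shared by all points. tcf21 ran closest to ccl25b, a chemokine gene (rho 0.92, both carried by the same 14 tubes), krt94, a keratin gene (0.90), and vmo1a (0.90). Among the genes closest to wt1a were tgfb5 (0.96) and fgfr4, a fibroblast growth factor receptor (0.90). wt1b ran closest to vmo1a (0.95, the same 13 tubes), EDIL3 (0.92) and HTRA3 (0.90).

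tbx18 ran closest to 2 IDs of NID1, a basement membrane gene (0.93 and 0.91), and col18a1b, a basement membrane collagen (0.91), and pdgfrb to GLIPR2 (0.93), NID2, a second basement membrane gene (0.92), and LOXL4, a collagen crosslinking enzyme (0.90). For aldh1a2 the closest were PLOD2, MDK and TFPI (0.92 each), and for pdgfra glis2a (0.93), stard9 (0.90) and s100v2 (0.88). PRRX1 ENSDARG00000033971 ran closest to asic1b (0.91), RPE65 (0.91) and C1QTNF2 (0.90). foxc1a had the weakest likeness, with SSH1 (0.87), GNG2 (0.86) and SALL1 (0.85). Between listed genes, rho ran between 0.29 for PRRX1 and foxc1a and 0.91 for tcf21 and wt1b.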

How the data were processed

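The authors deposited raw read counts per Ensembl gene for 25 libraries, unnormalised, one file each with 31901 rows. The submitters' processing notes name FastQC 0.11.5, HISAT2 2.1.0, featureCounts 1.6.0 and the GRCz11 build; the sources used here do not give the strand setting or the annotation release. Names came from a table covering 91.5% of IDs. wt1a and foxc1a are its WT1 and FOXC1, whose b paralogs it lists separately. No ID had the name vmhc, and the ID listed as MYH7 (ENSDARG00000079782) was taken for it. No coordinates or sequences of the files' build were at hand, so none are given. Reads of near-identical paralogs may be split between IDs.

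Groups follow the labels, and replicates are numbered in accession order. Genes were kept by filterByExpr (14853 tested), normalised by TMM and tested in 1 fit of 4 group means with edgeR 4.0.16 (robust quasi-likelihood, two-sided, R 4.3.3), Benjamini-Hochberg adjusted p under 0.05; common biological coefficient of variation 2.127. The SE is the log2 fold change over the square root of F and restates the p-value. A fold against a group without counts used a floor of 3 counts over the group, which covers counting error only, as PCR copies were not marked. Carrying tubes were compared with Fisher's exact test (scipy 1.17.1).

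Alternatives were DESeq2 1.42.0, limma-voom (limma 3.58.1, robust), RLE and TMMwsp scaling, no filter, other detection levels, the vmhc to myh6 ratio as covariate, fewer libraries and each library left out. Added after seeing the data were libraries with at least 6000 genes, detection within a gate or injury state, and limma-voom without robust variance; both limma-voom versions had been seen before one was chosen. The fits were also run on simulated counts, with the same spread for every gene and each gene drawn independently. Genes present or absent together in a tube were not simulated, so those runs say nothing about that pattern. The 10 genes and 10 further lists were chosen with earlier results of these data known. Named beside them were the 3 most alike genes of each tested gene (1 of them is not reported here), and from each list up to 4 called or the 1 or 2 most abundant; pdgfba, cyp26b1, aldh1a3, sox10 and both FN1 and TAGLN IDs were added after their values were seen.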

Additional observations from a re-analysis of the deposited data

Results flagged for a closer look

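In UN_RFP, tube 6 stood apart from the other 5 tubes by a gap test for small groups in 6 of 20 sets of a gene and a group. The nominal rate of that test, about 1 in 20, is for normally spread values and cannot be set against counts with many zeros. Tube 6 was the highest tube for tcf21 at 85.79 CPM, tbx18 at 54.01 CPM, wt1b at 16.91 CPM and wt1a at 7.489 CPM, each with every other UN_RFP tube at 0. Where every other tube is at 0 the gap is the whole range, so the flags of these genes were fixed in advance. Tube 6 was also the highest for pdgfra at 54.35 CPM, with the next tube at 15.15 CPM, and for pdgfrb at 16.34 CPM, with the next at 0.601 CPM. The 6 flags come from 1 tube and are not independent.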

How the results depend on the processing

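No paired analysis was possible because replicate numbers follow accession order only and link no tubes across groups. Counts of called listed genes, 0 of 9 by edgeR in all 7 comparisons, moved with the test. In UN_RFP against UN_BFP they were 1 by DESeq2, 1 by each limma-voom version, 1 without the filter on low counts and 3 with the vmhc to myh6 ratio as covariate. In CI_RFP against UN_RFP they were 1 by DESeq2, by each limma-voom version and without the filter. With injury averaged they were 1 by DESeq2, 2 by limma-voom, 1 without robust variance, 1 without the filter and 5 with the covariate; the covariate gave 3 in CI_RFP against CI_BFP, and DESeq2 gave 1 in the interaction and 1 with gates averaged. Leaving out 1 library gave 0 to 4 in UN_RFP against UN_BFP, 0 to 4 in CI_RFP against UN_RFP, 0 to 3 with injury averaged and 0 elsewhere. The cause was not tested, beyond UN_RFP tube 6, whose removal leaves UN_RFP at 0 for tcf21, tbx18 and wt1b. PRRX1 ENSDARG00000033971 was at 0 in UN_RFP with that tube too. The log2 fold change of wt1a in CI_RFP against CI_BFP was -2.96 and that of pdgfrb in CI_RFP against UN_RFP -0.01 with the covariate, opposite in sign to the values without it. All 9 folds of UN_RFP against UN_BFP stayed negative under the 9 other settings and the 25 fits without 1 library. Tubes with at least 3 listed IDs stayed at 7, 3, 2 and 4 by any count or by CPM from library totals, fell to 6 in CI_RFP at 10 CPM, and ran from 1 to 2 in UN_RFP, 6 to 7 in CI_RFP, 2 to 2 in CI_BFP and 3 to 3 in UN_BFP without 1 library. Fisher's tests called 0 genes under every alternative. Genes called in all, in the order CI_RFP against CI_BFP, UN_RFP against UN_BFP, CI_RFP against UN_RFP, CI_BFP against UN_BFP, interaction, injury averaged and gates averaged, were 0, 0, 4, 0, 0, 129 and 0 by edgeR; 446, 806, 861, 471, 701, 1015 and 876 by DESeq2; 254, 198, 525, 18, 3, 429 and 121 by limma-voom; 213, 143, 463, 11, 2, 374 and 94 by limma-voom without robust variance; 293, 27, 513, 0, 2, 346 and 9 without the filter; 139, 148, 3, 0, 0, 1492 and 0 with the covariate. RLE and TMMwsp scaling each gave 1 in CI_RFP against CI_BFP. Without the 1 library under 3000 genes (UN_RFP tube 5) edgeR called 0 in CI_RFP against UN_RFP and 31 with injury averaged, and without the 5 libraries under 6000 genes 0 and 4. Leaving out 1 library gave 0 to 9, 0 to 170, 0 to 160, 0 to 0, 0 to 1, 22 to 580 and 0 to 4. The tests are limited by a common coefficient of variation of 2.127, groups of 3 and 4 tubes, and 1 CPM being 4.94 to 14.7 reads.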
